A study of Homo sapiens with 15 samples.

Results

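The comparison described here sets sgPRMT5-2 directly against sgPRMT5-1, 2 guide RNAs to the same gene, in HSC5 cells, an established line of human squamous cell carcinoma of the skin. Its members are 6 of the 15 RNA libraries of the study, 3 with each guide, chosen by their guide alone. The study made 5 kinds of Cas9-expressing culture, with the control sgNeg, the guides to PRMT5, or sgWDR77-1 or sgWDR77-2, each in 3 cultures labelled as biological replicates. The legends of the paper's western blots describe sgNeg as an empty vector. The study asked what the enzyme PRMT5 and its partner WDR77 control together in this carcinoma line. The 6 libraries share the cell line, the genotype label "PRMT5 Knockout" and the treatment label "Neomycin", which the sgNeg cultures (genotype WT) carry as well. Both guides were delivered by lentivirus, and both target exons that encode the catalytic domain. No label or method describes single-cell clones, so each culture may mix edited and unedited cells. The series text speaks of the gene as knocked down, whereas the paper's methods call the knockout in these cells complete and say that it was checked by qRT-PCR. The measured quantity is polyadenylated RNA, and fewer cells of a type and less RNA per cell cannot be told apart in such bulk samples.

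PRMT5 is an arginine methyltransferase that places symmetric dimethyl groups on histones, on spliceosomal Sm proteins and on other proteins, and it works in a complex with WDR77. Loss of its activity is known to alter splicing, cell cycle genes and interferon responses in several cell types. In stratified epithelia, p63 and keratin 5 mark basal keratinocytes, while cytokines, matrix proteases and growth factors of the EGF family are released by stressed or migrating keratinocytes. Guides to the same gene share their intended target and differ in the cut site, in how completely they edit and in any other site they cut. The comparison therefore addresses how far cultures with the same label differ by guide.

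The guide sequences are in a supplementary table of the paper that was not among the files read here, so the guides themselves are not printed. A supplementary figure of the paper lists the codons that were recoded to make a PRMT5 cDNA resistant to editing in a rescue experiment with sgPRMT5-1, and this stretch is shown because it is the designed sequence tied to a guide that could be read. It spans 6 codons and 18 bases on the minus strand at chr14:22924299-22924316 of hg38, in coding sequence of exon 11 of the 17 exons of the transcript, and capitals mark the 6 bases that differ in the resistant cDNA. Whether the cut site of sgPRMT5-1 lies exactly there was not tested.
PRMT5 codons 385 to 390: cgGatAaaGctGtaTgcT

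Each library held between 5958936 and 6730428 reads counted on genes. In order of replicate, sgPRMT5-1 had 6704352, 5958936 and 5974844, and sgPRMT5-2 had 6730428, 6058519 and 6124306. All values below are normalized counts in CPM, the usual unit scaled by library size, and at this depth 1 CPM is a handful of reads. Reads outside genes made up 3.33%, 3.38% and 2.75% of the reads listed with sgPRMT5-1 and 4.26%, 4.13% and 4.03% with sgPRMT5-2. That share was higher in each sgPRMT5-2 library than in any sgPRMT5-1 library, and the number of genes with a read was too, at 18823, 18374 and 18031 against 19230, 18857 and 18958. The part of these measures in the results was not tested. The 10 most abundant genes took 4.36% to 4.64% of the counts in the 6 libraries.

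The markers of keratinocytes were present in all 6 libraries, with a summed level of 2663, 2881 and 2643 CPM with sgPRMT5-1 and 2261, 2249 and 2339 CPM with sgPRMT5-2. KRT17 was the most abundant of the 10, and KRT14, the usual partner of keratin 5, was near absent with 13 counts over the 6 libraries. The 8 fibroblast markers summed to 6.47 to 12.4 CPM, most of it COL1A1, with COL1A2 and THY1 at 0. Leukocyte markers summed to 0.752 to 1.82 CPM, most of it CD14, with PTPRC, CD3E and MS4A1 among those at 0. The endothelial list summed to 13.3 to 20.4 CPM in 5 libraries and slightly more in sgPRMT5-1 replicate 2, most of it CDH5, with KDR and TEK at 0, and the melanocyte list to 13.7 to 17.0 CPM, most of it MITF, with TYR and DCT at 0. None of the tested members of these 4 lists, 1, 1, 3 and 4 genes, passed the limma voom test at an adjusted p of 0.05. At an unadjusted p of 0.05 or less there was 1, the melanocyte gene MLANA (unadjusted p = 0.0419), and without sgPRMT5-1 replicate 3 there was 1 called lower in the melanocyte list. With no filter on low counts, 1 of 4 tested endothelial markers was called higher.

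The libraries did not separate evenly. On the first principal component, which held 51.1% of the variance, the sgPRMT5-1 libraries lay at -26.6, -24.1 and -8.4 and the sgPRMT5-2 libraries at 19.3, 19.6 and 20.0. Replicate 3 of sgPRMT5-1 thus stood apart from its own group, in the direction of the other guide, and on the next component (15.9%) it lay at -25.0 while the other 5 lay between 2.0 and 9.5. For each library, the genes called without it were used to place it on a scale from 0, its own guide, to 1, the other guide. Its median position was 0.55 over 4711 genes, and 2556 of these genes (54.3%) were nearer the sgPRMT5-2 mean. The other 5 libraries had medians from -0.14 to 0.07. The sgPRMT5-2 libraries were the more alike, with Pearson correlations of 0.9932 to 0.9936 across 13976 genes, against 0.9898 to 0.9930 among the sgPRMT5-1 libraries, where genes are not independent replicates. Results are therefore given with and without sgPRMT5-1 replicate 3. This library was singled out by its position in these same data, so p-values without it are descriptive. List counts without it stand beside the 33.6% of all genes called in that fit.

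**Figure D1:**
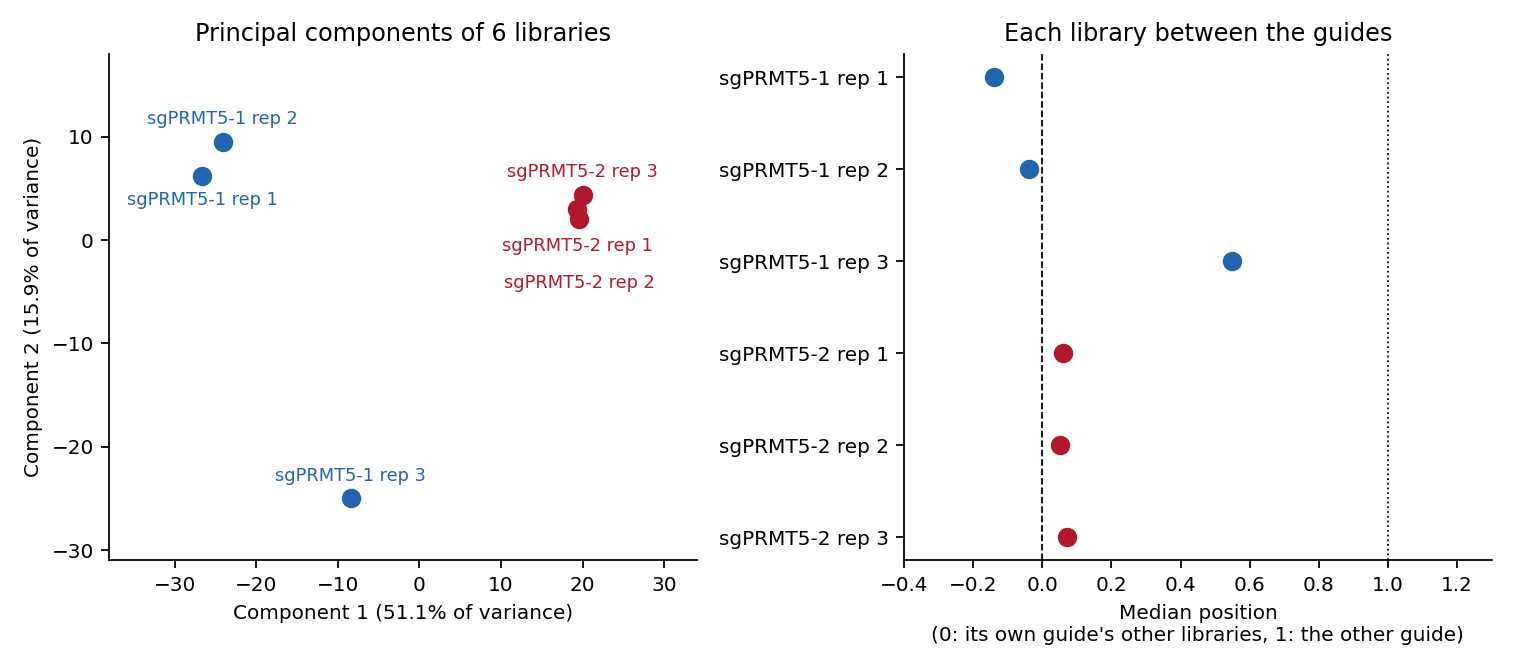
Principal components of the 6 libraries (left, both axes in component units) and the median position of each library between the guides (right, 0 for the other libraries of its own guide and 1 for the other guide). The 3 sgPRMT5-2 libraries lie together, and sgPRMT5-1 replicate 3 lies at a median of 0.55 toward them.

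Of 13976 genes tested, 2690 (19.2%) differed between the guides at an adjusted p of 0.05 or less in limma voom, 1389 higher (9.94%) and 1301 lower (9.31%) with sgPRMT5-2. The balance depended on the scaling, with 1146 higher and 1552 lower when library totals were used. The p-values measure the spread between cultures labelled as biological replicates, 3 for each guide. Most differences were modest, with a median absolute log2 fold change of 0.44 among the called genes (quartiles 0.32 and 0.70). A change of 1 or more on the log2 scale in either direction was found for 386 of them (2.76% of the tested genes), 160 higher (1.14%) and 226 lower (1.62%). The 3 libraries of a guide all lay on the same side of the other guide's 3 for 4872 of the tested genes (34.9%) and for 2525 of the called ones. With sgPRMT5-1 replicate 3 left out, 4711 of 14025 genes (33.6%) were called, 2365 higher (16.9%) and 2346 lower (16.7%). Of the 2690 genes, 2634 were among them, which is 97.9% of the first set and 55.9% of the second. Leaving out any 1 of the other 5 libraries gave 1429 to 1681 calls, and 1071 were called when the spread was shared over all 15 libraries. Protein-coding genes were called more often (21.1% of 12105) than long noncoding RNAs (8.13% of 1279).

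**Figure D2:**
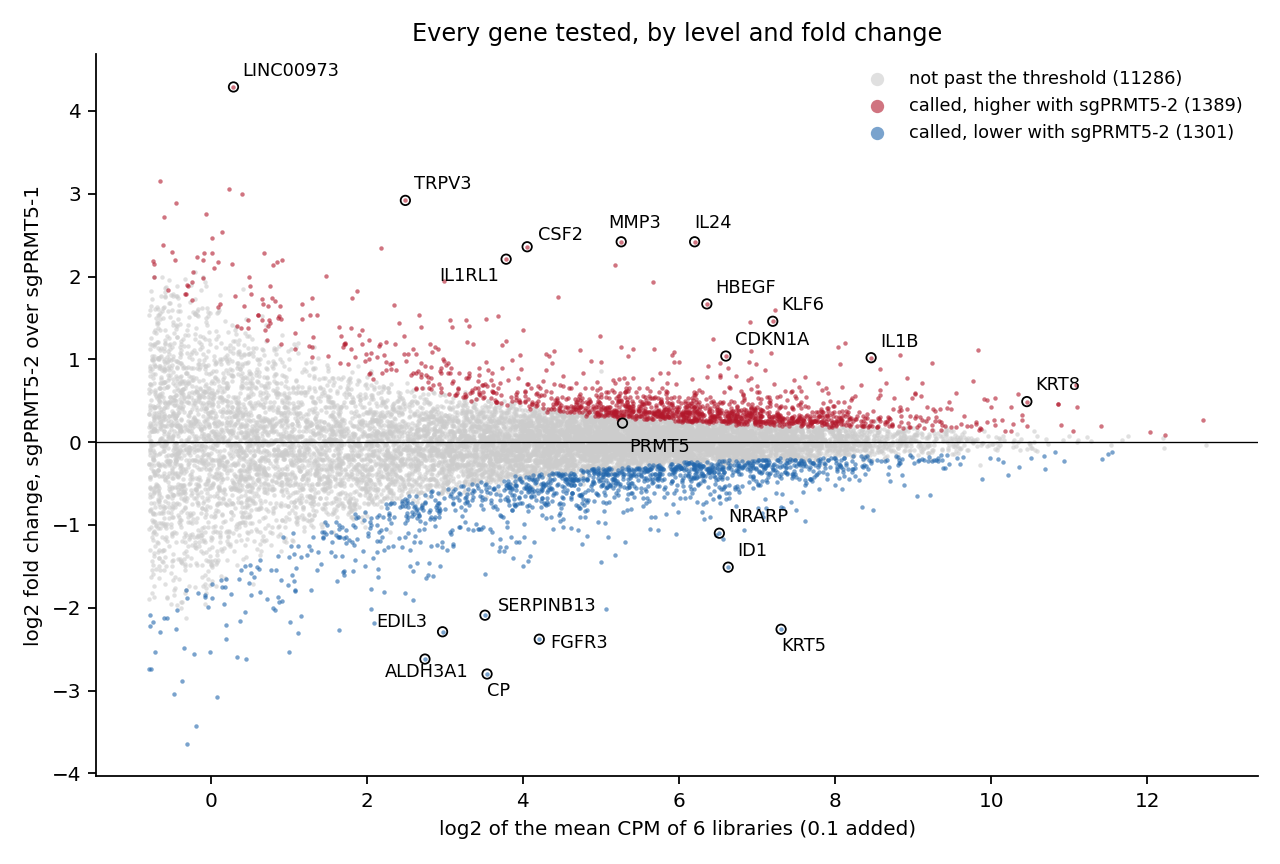
Each point is a gene, by the log2 of its mean CPM over 6 libraries with 0.1 added (horizontal axis) and its log2 fold change of sgPRMT5-2 over sgPRMT5-1 (vertical axis). Red and blue points are the 1389 and 1301 genes called higher and lower with sgPRMT5-2, and circles mark genes named in the text.

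The sgNeg libraries, which were not part of the fit, show where the called genes stood in control cells. Among the 1389 genes higher with sgPRMT5-2, the sgNeg mean was below both guides for 1127 (81.1%), between them for 248 (17.9%) and above both for 14 (1.01%). Among the 1301 lower genes it was above both guides for 959 (73.7%), between them for 333 (25.6%) and below both for 9 (0.692%). For all genes tested the corresponding shares were 40.6% below, 22.2% between and 37.2% above. In most called genes, sgPRMT5-2 was thus the guide farther from the control level. Across the tested genes, the correlation with the sgNeg mean was 0.9923, 0.9901 and 0.9851 for the sgPRMT5-1 libraries and 0.9751, 0.9750 and 0.9749 for the sgPRMT5-2 libraries. Because the control libraries enter both sides of such a description, it is given without a test. sgNeg replicate 2 differed from the other control libraries, with 7.16% of its reads outside genes against 2.84% and 3.56%.

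PRMT5 itself, on chromosome 14, was at 31.6, 35.1 and 40.4 CPM with sgPRMT5-1, at 42.7, 43.6 and 38.5 CPM with sgPRMT5-2 and at 57.9, 48.4 and 66.5 CPM with sgNeg. The guides overlapped, since sgPRMT5-1 replicate 3 lay above an sgPRMT5-2 library, and every guide library lay below every sgNeg library. The log2 fold change of 0.23 (SE 0.11) did not pass the test (adjusted p = 0.146), and without sgPRMT5-1 replicate 3 it was 0.32 with an adjusted p = 0.0117. Transcript levels do not show how much protein remained. The paper reports less PRMT5 protein after depletion, and its western blot of this line holds both guides. WDR77, the partner that positions substrates, was at 128, 117 and 152 CPM against 122, 127 and 116 CPM, with a log2 fold change of -0.11 (SE 0.09, adjusted p = 0.405). The guides overlapped through sgPRMT5-1 replicate 2, while sgPRMT5-1 replicates 1 and 3 lay above every sgPRMT5-2 library.

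TP63 encodes p63, the study's transcription factor downstream of PRMT5. The paper describes that link for the p63 protein and its stability, and reports no significant change of TP63 transcript after PRMT5 loss. The TP63 transcript was at 397, 425 and 317 CPM with sgPRMT5-1 and at 334, 304 and 327 CPM with sgPRMT5-2. Replicate 3 of sgPRMT5-1 lay among the sgPRMT5-2 libraries, while the other 2 were higher. It fell by 0.23 on the log2 scale with an adjusted p = 0.0495, just inside the threshold. Without that replicate, which was singled out by its position in these data, TP63 fell by 0.35 (adjusted p = 3.97e-08). Leaving out any other library ended the call, with adjusted p from 0.101 to 0.255. The smallest difference was -0.15, without sgPRMT5-1 replicate 2. The sgNeg level was 332, 339 and 348 CPM, near that of sgPRMT5-2. Among the ubiquitin ligases set down with it, ITCH rose from 191, 209 and 201 CPM to 248, 229.9 and 229 CPM, with a log2 fold change of 0.24 (SE 0.07, adjusted p = 0.0144). Its groups did not overlap, yet the call was lost without sgPRMT5-1 replicate 1 (adjusted p = 0.0803) and without sgPRMT5-2 replicate 1 (0.105) or 2 (0.0556). UBE3A fell by 0.36 (adjusted p = 0.00770), a call lost without sgPRMT5-1 replicate 1 (0.0690) or sgPRMT5-2 replicate 3 (0.0534). FBXO30 (-0.09, adjusted p = 0.583) and FBXW7 (0.04, adjusted p = 0.870) did not pass. Of the 9 tested genes of this list, 1 was higher and 2 were lower (33.3% called, against 19.2% of all genes). The median log2 fold change was -0.03 against 0.00 over all genes.

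CDKN1A, which encodes the cell cycle inhibitor p21, was at 51.1, 64.8 and 76.6 CPM with sgPRMT5-1, at 143, 122 and 124 CPM with sgPRMT5-2 and at 42.2, 38.0 and 48.9 CPM with sgNeg. The 3 groups did not overlap, and sgPRMT5-2 was the highest. The log2 fold change was 1.04 (SE 0.11, adjusted p = 9.31e-07), and 1.18 without sgPRMT5-1 replicate 3. The other inhibitors of cyclin-dependent kinases moved the other way where they passed. CDKN1B, which encodes p27, went from 92.2, 109 and 69.7 CPM to 63.2, 64.5 and 62.1 CPM (log2 fold change -0.49, adjusted p = 0.00570). CDKN2C fell by 0.70 (adjusted p = 0.00698) and CDKN3 by 0.32. CDKN2A did not pass (0.26, adjusted p = 0.153). In all, 1 of 7 tested inhibitors was higher and 3 were lower (57.1% called, against 19.2% of all genes), with a median of -0.24.

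Of 29 tested p53 targets, 7 were higher and 2 were lower (31.0% called), with a median of 0.01. GADD45A, a stress-induced regulator of growth and repair, was at 79.8, 94.4 and 90.1 CPM with sgPRMT5-1 and at 148, 145 and 149 CPM with sgPRMT5-2. The 3 sgPRMT5-2 libraries were all higher, by a log2 fold change of 0.75 (SE 0.08, adjusted p = 9.23e-07). The secreted stress factor GDF15 was at 138, 144 and 152 CPM against 210.4, 205 and 224 CPM, again without overlap (0.56, adjusted p = 7.96e-06). AEN, an apoptosis-enhancing nuclease, rose by 0.72 (adjusted p = 1.31e-04), whereas the repair gene DDB2 fell by 0.60. MDM2, the best known target, was at 164, 182 and 145 CPM against 161, 171 and 148 CPM (adjusted p = 0.845). Counts changed with the libraries used, with 9 higher and 4 lower (median -0.03) without sgPRMT5-1 replicate 3 and 4 higher without sgPRMT5-2 replicate 2.

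The largest increases among genes at a mean of at least 1 CPM included several genes at very low levels with sgPRMT5-1. LINC00973, a long noncoding RNA, had 1 count in the 3 sgPRMT5-1 libraries together and 41 in the 3 sgPRMT5-2 libraries (adjusted p = 4.15e-05). It was thus close to absent with sgPRMT5-1, as it was with sgNeg at 0, 0.160 and 0 CPM. CD163L1, a scavenger receptor gene, was at 1.02, 1.16 and 2.17 CPM with sgPRMT5-1 and at 6.17, 9.14 and 6.93 CPM with sgPRMT5-2. The groups were far apart, with a log2 fold change of 2.35 (SE 0.35, adjusted p = 9.88e-05). LINC02535 (3.06), RGMB-AS1 (3.00), TRPV3 (2.92), which encodes a heat-activated cation channel of keratinocytes, and RP3-522J7.7 (2.29) also passed without overlap. LINC02535 rests on 4 counts against 36 and RGMB-AS1 on 6 against 39, and without sgPRMT5-1 replicate 3 they were at 2.32 and 3.92. RGMB-AS1 is an antisense transcript, and the strand setting of the counting is not known, so its reads may be shared with its neighbour. The other 4 of the 10 largest increases, IL24, MMP3, CSF2 and IL1RL1, belong to the cytokine and protease lists described next.

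IL24, a cytokine of the IL10 family, was at 15.4, 22.9 and 34.7 CPM with sgPRMT5-1, at 116, 119.5 and 132 CPM with sgPRMT5-2 and at 3.82, 4.81 and 6.04 CPM with sgNeg. The levels formed 3 separate groups, lowest in sgNeg and highest with sgPRMT5-2. Its log2 fold change between the guides was 2.42 (SE 0.16, adjusted p = 1.73e-09). CSF2, the myeloid growth factor GM-CSF, rose by 2.36 on the log2 scale (adjusted p = 3.82e-08). IL6, a cytokine of inflammation, was at 9.37, 10.3 and 7.17 CPM against 25.0, 21.9 and 21.8 CPM (1.36, adjusted p = 5.44e-06). No sgPRMT5-1 library came near the sgPRMT5-2 range. LIF, a cytokine that signals through gp130, was at 74.7, 86.1 and 80.4 CPM against 149, 158 and 165 CPM (0.97, adjusted p = 2.84e-08). IL11 (1.95), CSF3 (1.71), IL23A (1.39), IL32 (1.17), CCL20 (0.75) and the receptor IL6R (0.72) were higher too, the call for CSF3 being lost without sgPRMT5-2 replicate 1 (adjusted p = 0.0603). In this list of chemokines and colony-stimulating factors, 10 of 23 tested genes were higher and 2, CXCL1 (-0.61) and OSMR (-0.17), were lower (52.2% called), with a median of 0.43. CXCL8, the neutrophil chemokine IL8, was at 405, 362 and 241 CPM against 385, 390.2 and 399 CPM and did not pass (adjusted p = 0.124). It was called higher without sgPRMT5-1 replicate 1 (0.41, adjusted p = 0.0204), with the replicate block (0.0369) and with no filter on low counts (0.00171). Its log2 fold change of 0.25 fell to 0.03 without sgPRMT5-1 replicate 3 (adjusted p = 0.664). With sgPRMT5-1 replicate 3 left out, 10 were higher and 4 lower and the median was 0.24, and leaving out any 1 of the other 5 libraries left 1 lower.

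The IL1 family and the genes of NF-kB feedback gave 10 higher and 4 lower of 23 tested (60.9% called), with a median of 0.30. IL1B was at 220.4, 235 and 243 CPM with sgPRMT5-1, at 473, 459.7 and 483 CPM with sgPRMT5-2 and at 105, 97.6 and 89.1 CPM with sgNeg. The sgPRMT5-2 libraries stood apart from the rest and varied little among themselves, with a log2 fold change of 1.02 (SE 0.06, adjusted p = 2.35e-10). IL1A, its epithelial relative, was at 267, 291 and 251 CPM against 489, 483 and 515 CPM (0.88, adjusted p = 3.11e-09). IL1RL1, the receptor of IL33, was at 4.69, 4.49 and 5.34 CPM against 22.9, 22.3 and 22.4 CPM (2.21, adjusted p = 4.24e-08). Both genes had all sgPRMT5-2 libraries on the higher side. The antagonist IL1RN was also higher (1.21, adjusted p = 0.00746), though not without sgPRMT5-1 replicate 2 (0.0614). The receptor chains IL1R1 (-1.17) and IL1RAP (-0.48) were lower, and TNFAIP3, which restrains NF-kB, was higher (0.87). The call for IL1R1 (adjusted p = 0.0124) was lost without sgPRMT5-1 replicate 2 (0.0604), sgPRMT5-2 replicate 1 (0.0508) or sgPRMT5-2 replicate 3 (0.0607). Without the last of these libraries, 2 members were lower.

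Several enzymes that cut matrix were higher. MMP3, stromelysin, was at 8.93, 10.6 and 18.2 CPM with sgPRMT5-1, at 67.1, 66.5 and 57.9 CPM with sgPRMT5-2 and at 0.166, 0.321 and 1.42 CPM with sgNeg. It was near absent in control cells and highest with sgPRMT5-2 (log2 fold change 2.42, SE 0.17, adjusted p = 3.11e-09). MMP1, the interstitial collagenase, was at 17.0, 20.0 and 27.2 CPM against 85.9, 78.0 and 76.1 CPM (1.94, adjusted p = 1.73e-09). Of its sgNeg levels, 40.8, 23.7 and 47.8 CPM, 2 lay between the guides and 1 lay within the sgPRMT5-1 range. ADAMTS1, which cleaves proteoglycans, was at 12.3, 8.81 and 20.9 CPM against 60.5, 58.4 and 55.3 CPM (2.14, adjusted p = 3.32e-08). PLAU, the urokinase that activates plasminogen, was at 452, 437 and 444 CPM against 649, 651 and 673 CPM (0.56, adjusted p = 1.14e-07). Its sgPRMT5-2 libraries were all higher. Of 19 tested genes of this list, 10 were higher and 3 lower (68.4% called), with a median of 0.42. The lower ones were MMP7 (-1.75), MMP13 (-0.82) and PLAT (-0.44). MMP13 went from 19.5, 20.5 and 15.2 CPM to 11.3, 12.1 and 7.92 CPM and was at 54.5, 51.6 and 51.9 CPM with sgNeg. The call for MMP7 (adjusted p = 0.0450) was lost without any 1 of sgPRMT5-1 replicates 1 and 2 and the 3 sgPRMT5-2 libraries (0.0907 to 0.185), and 1 or 2 members were then lower. When sgPRMT5-1 replicate 3 was left out, 4 were lower.

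Anchoring molecules and matrix moved in mixed directions. Among hemidesmosome and integrin genes, 8 of 19 were higher and 2 lower (52.6% called), with a median of 0.06. LAMB3, a chain of the basement membrane laminin 332, was at 341, 357 and 376 CPM against 597, 617 and 628 CPM (0.78, SE 0.06, adjusted p = 3.66e-09). The fibronectin receptor chain ITGA5 was at 127, 153 and 152 CPM against 218, 226 and 237 CPM (0.67, adjusted p = 2.79e-06). In both, the guides were clearly apart. ITGA2, a collagen receptor chain, rose by 0.59, while ITGB6 (-0.44) and ITGB8 (-0.53), which bind latent TGF-beta, fell. Without sgPRMT5-1 replicate 3, 8 were higher and 6 lower, and 1 was lower without sgPRMT5-1 replicate 1 or sgPRMT5-2 replicate 3.

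Of 30 tested extracellular matrix genes, 5 were higher and 10 lower, with a median of -0.22. The higher ones were TNC (1.15), THBS1 (0.71), COL12A1 (0.65), CCN1 (0.58) and FN1 (0.47). THBS1, the matricellular protein thrombospondin, was at 319, 282 and 315 CPM against 519, 505 and 478 CPM (adjusted p = 5.33e-08), with no overlap. FN1 lost its call without sgPRMT5-2 replicate 1 (adjusted p = 0.0813) or 2 (0.0531). The lower ones included COL5A1 (-1.82), MXRA5 (-1.70), COL6A2 (-0.82), COL4A1 (-0.67) and LAMA5 (-0.63). COL5A1, a fibrillar collagen chain, was at 11.9, 7.32 and 6.67 CPM against 2.11, 2.83 and 2.15 CPM (adjusted p = 3.60e-04), and at 21.4, 22.1 and 20.1 CPM with sgNeg. It stepped down from control cells through sgPRMT5-1 to sgPRMT5-2. The number of lower genes was 5 without sgPRMT5-2 replicate 1 and 14 without sgPRMT5-1 replicate 3, where 16.7% of all genes were lower.

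Immediate early factors and the EGF pathway made up another group of higher genes. KLF6, a zinc finger factor induced by injury, was at 83.2, 80.1 and 72.1 CPM with sgPRMT5-1, at 209.8, 211 and 226 CPM with sgPRMT5-2 and at 53.8, 60.3 and 65.8 CPM with sgNeg. The guides did not overlap, and KLF6 shared the smallest adjusted p of all genes with KRT5 (log2 fold change 1.46, SE 0.08, adjusted p = 8.22e-11). FOSL1, the AP-1 subunit FRA1, was at 160.2, 151 and 202 CPM against 383, 380.2 and 402 CPM (1.20, adjusted p = 1.73e-09). The MAP kinase phosphatase DUSP5 was at 85.1, 70.5 and 75.9 CPM against 161, 166 and 169 CPM (1.10, adjusted p = 5.16e-09). All 3 genes were higher in each sgPRMT5-2 library than in any sgPRMT5-1 library. ATF3 (1.60), SPRY4 (1.52), DUSP4 (1.28), FOSB (1.25), IER3 (1.22) and DUSP6 (0.76) were higher as well. In all, 11 of 23 were higher and JUNB (-0.52), KLF10 (-0.52) and IER2 (-0.37) were lower (60.9% called), with a median of 0.49.

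FOS shows what a library that stands apart can do to a group. It was at 497, 440.1 and 224 CPM with sgPRMT5-1 and at 326, 352 and 383 CPM with sgPRMT5-2. Replicate 3 of sgPRMT5-1 was lower than every sgPRMT5-2 library and the other 2 were higher than every one. The log2 fold change was -0.06 (adjusted p = 0.831) with all 6 libraries and -0.41 (adjusted p = 6.30e-09) without that replicate. Without it, 12 genes of the list were higher and 7 lower and the median was 0.29. JUN, the partner of FOS, was at 558, 603 and 509.5 CPM against 552, 509.9 and 552 CPM (adjusted p = 0.638), and without that replicate it was called lower (-0.11, adjusted p = 0.0388).

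HBEGF, a ligand of the EGF receptor, was at 34.8, 41.7 and 41.5 CPM with sgPRMT5-1, at 124, 128 and 121 CPM with sgPRMT5-2 and at 21.7, 22.9 and 25.4 CPM with sgNeg. The sgPRMT5-2 libraries were close together and far above the rest (log2 fold change 1.67, SE 0.09, adjusted p = 1.11e-10). Amphiregulin, AREG, was at 35.9, 42.4 and 38.4 CPM against 72.2, 81.3 and 89.3 CPM (1.05, adjusted p = 3.23e-07), and its sgNeg level of 34.9, 35.4 and 35.7 CPM was near that of sgPRMT5-1. The ligands NRG1 (0.97), TGFA (0.35) and EREG (0.33) and the feedback inhibitor ERRFI1 (0.94) were higher, and the receptor ERBB2 was lower (-0.38). In all, 6 of 12 were higher and 1 was lower (58.3% called), with a median of 0.34. EGFR was at 968, 861 and 926 CPM against 1051, 1005 and 974 CPM. Its sgPRMT5-2 libraries were all higher, and the log2 fold change of 0.14 had an adjusted p = 0.0614, which became 0.00185 without sgPRMT5-1 replicate 3, 0.0415 without sgPRMT5-1 replicate 1, 0.0346 with the replicate block and 0.00110 with no filter on low counts. The list had 2 lower members without sgPRMT5-1 replicate 3.

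Some of the clearest differences lay outside the lists, and these genes were chosen after their values were seen. PHLDA1, a regulator of growth signalling, was at 158, 177 and 154 CPM against 355, 375 and 359 CPM (1.15, adjusted p = 1.98e-10). NT5E, the ectonucleotidase CD73, was at 57.0, 58.7 and 79.9 CPM against 173, 169 and 185 CPM (1.45, adjusted p = 1.81e-09). Tissue factor, F3, was at 619, 661 and 692 CPM against 1105, 1073 and 1099 CPM (0.74, adjusted p = 1.81e-09). These 3 genes were higher with sgPRMT5-2 without overlap and lowest with sgNeg. The metallothionein MT2A was at 483, 542 and 719 CPM against 1166, 1219 and 1317 CPM (1.11, adjusted p = 1.31e-08), and AKAP12, a scaffold for protein kinases A and C, rose by 1.08. CELSR1, a cadherin of planar cell polarity, was at 675, 622 and 637 CPM against 424, 408 and 400.0 CPM (-0.65, adjusted p = 3.82e-08), so each sgPRMT5-2 library was lower.

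**Figure D3:**
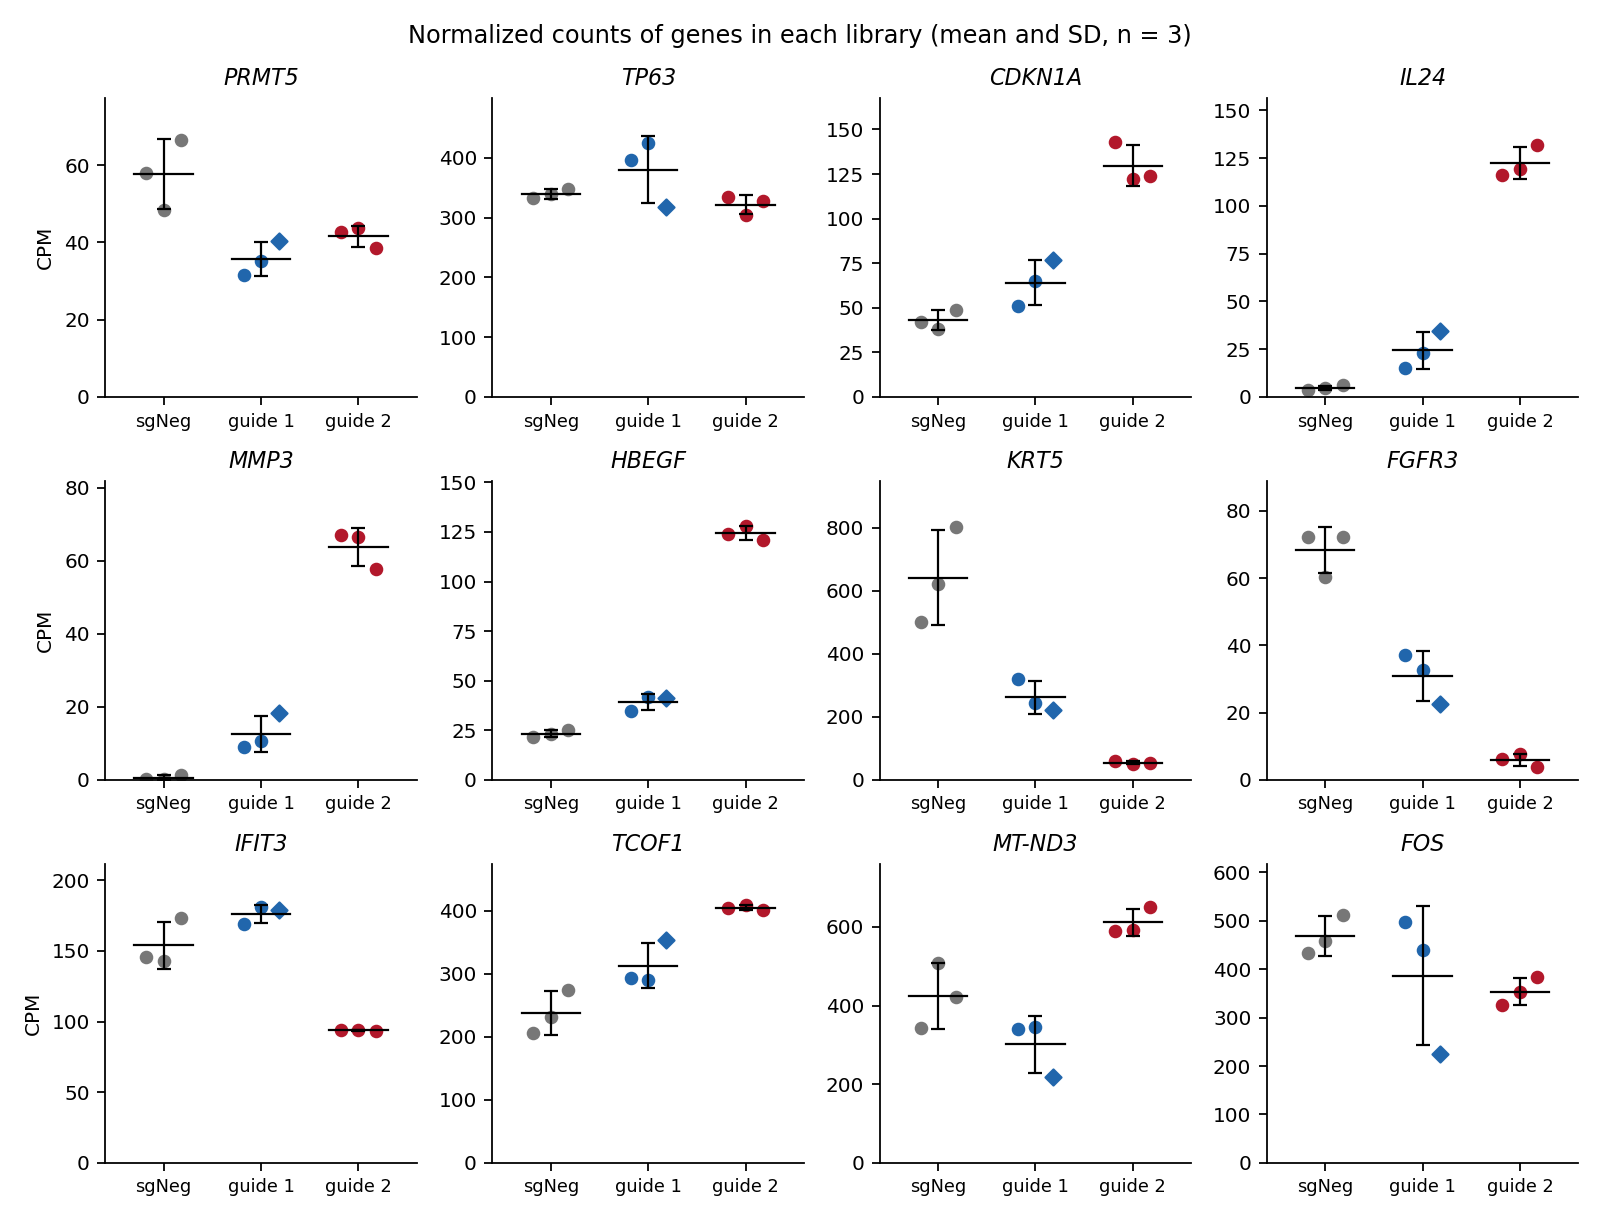
Normalized counts (CPM, vertical axis from 0) of 12 genes in the 3 sgNeg, 3 sgPRMT5-1 and 3 sgPRMT5-2 libraries; lines are means and bars SD (n = 3), and the diamond is sgPRMT5-1 replicate 3. IL24, MMP3 and HBEGF stand highest and KRT5 and FGFR3 lowest with sgPRMT5-2, while FOS and TP63 overlap because of the diamond.

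Among the largest decreases, FGFR3, a receptor for fibroblast growth factors, was at 37.2, 32.6 and 22.7 CPM with sgPRMT5-1, at 6.32, 7.65 and 3.96 CPM with sgPRMT5-2 and at 72.2, 60.4 and 72.2 CPM with sgNeg. It stepped down from control to sgPRMT5-1 to sgPRMT5-2 without overlap (log2 fold change -2.38, SE 0.24, adjusted p = 7.53e-07). Ceruloplasmin, CP, was at 33.4, 22.3 and 6.17 CPM against 2.56, 1.66 and 3.14 CPM, from 220.0, 98.6 and 100.3 CPM with sgNeg (-2.80, SE 0.64, adjusted p = 0.00435). The aldehyde dehydrogenase ALDH3A1 was at 14.5, 11.3 and 8.34 CPM against 1.35, 2.49 and 1.65 CPM, from 66.9, 37.7 and 45.9 CPM with sgNeg (-2.62, adjusted p = 1.73e-05). In both, sgPRMT5-1 replicate 3 was the lowest of its group yet above all 3 sgPRMT5-2 libraries. EDIL3, a secreted integrin ligand, was at 13.8, 15.3 and 9.68 CPM against 3.01, 2.33 and 2.31 CPM (-2.29, adjusted p = 8.65e-06). The remaining 6 of the 10 were ATP2A3 (-2.62), the oxygen carrier MB (-2.59), SYT8 (-2.54), BEND4 (-2.38), the flagellin receptor TLR5 (-2.31) and PAQR8 (-2.27), at 5.86 CPM or less in every guide library. ATP2A3, SYT8 and BEND4 lost their calls when some libraries were left out. Without sgPRMT5-2 replicate 3, ATP2A3 was at -1.64 (adjusted p = 0.0906) and SYT8 at -1.30 (0.126), and without sgPRMT5-2 replicate 1, BEND4 was at -1.24 (0.161). For ATP2A3 the other libraries that ended the call were sgPRMT5-1 replicate 1 (0.0522) and sgPRMT5-2 replicate 1 (0.0576), and for SYT8 sgPRMT5-1 replicates 1 (0.0565) and 2 (0.0603). The log2 fold change of CP was -3.49 without sgPRMT5-1 replicate 3, and in the fit of all 15 libraries CP did not pass (adjusted p = 0.111).

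Keratins moved in both directions. KRT5, the basal keratin, was at 321, 245 and 221 CPM with sgPRMT5-1, at 59.3, 51.0 and 52.8 CPM with sgPRMT5-2 and at 502, 622 and 801 CPM with sgNeg. The 3 groups were far apart, and KRT5 fell by 2.26 on the log2 scale from sgPRMT5-1 to sgPRMT5-2 (SE 0.12, adjusted p = 8.22e-11). KRT15, another basal keratin, was at 24.9, 16.3 and 15.7 CPM against 4.67, 8.65 and 11.9 CPM (-1.27, adjusted p = 0.00121), from 192, 111 and 184 CPM with sgNeg. KRT6A, which marks activated keratinocytes and shares reads with near-identical copies, fell by 2.02 (adjusted p = 0.00127). KRT17 fell by 0.26 (adjusted p = 0.00756), a call lost without sgPRMT5-1 replicate 2 (-0.17, adjusted p = 0.0589) or sgPRMT5-2 replicate 1 (0.0733). KRT80 was the stratified keratin that rose (0.47), so that of 8 tested, 1 was higher and 4 lower (62.5% called), with a median of -0.42. Among the keratins of simple epithelia, KRT8 was at 1097, 1112 and 1303 CPM against 1614, 1664 and 1640.4 CPM (0.49, SE 0.05, adjusted p = 1.17e-06). Its partner KRT18 was at 759.9, 794 and 898 CPM against 1125, 1152 and 1197 CPM (0.51, adjusted p = 1.24e-06). Both were higher in each sgPRMT5-2 library. KRT7 rose as well (0.56), whereas KRT19 went from 429, 397 and 403 CPM to 242, 235 and 238 CPM (-0.78, adjusted p = 9.33e-09), so 3 of 4 were higher and 1 was lower (median 0.50).

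Of 40 genes of the cornified envelope found in the tables, 19 could be tested, and 3 were lower and none higher (15.8% called, against 19.2% of all genes), with a median of 0.00. ELF3, an epithelial transcription factor, was at 178, 174 and 165 CPM against 95.4, 93.4 and 97.6 CPM (-0.85, SE 0.07, adjusted p = 4.37e-08). Periplakin, PPL, was at 198, 191 and 178 CPM against 154, 152 and 153 CPM (-0.30, adjusted p = 0.00375). LY6D had 34 counts with sgPRMT5-1 and 3 with sgPRMT5-2, a ratio of 0.0888 with a 95% counting interval of 0.0175 to 0.282. Its call was lost without sgPRMT5-2 replicate 1 (adjusted p = 0.0708). Of 12 desmosome genes, DSG3 (-0.38) and PERP (-0.22) were lower and none was higher (16.7% called, against 19.2% of all genes), with a median of -0.16. Their calls depended on the libraries, with 5 lower without sgPRMT5-1 replicate 3, where 33.6% of all genes were called, and 0 or 1 lower when any 1 of the other 5 was left out. Among the 9 tested keratinocyte markers, 5 were lower, namely KRT5, KRT6A, KRT17, DSG3 and TP63, and none was higher (55.6% called), with a median of -0.26. Without sgPRMT5-1 replicate 3, 6 were lower and 1 higher, and 2 to 4 were lower with another library left out.

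Among the lists, interferon-stimulated genes had the most members called lower. Promoters of 3 of them are printed here because the members moved together, with capitals marking the letters GAAA followed after any 2 bases by GAAA, the core of the interferon-stimulated response element (ISRE), on either strand. The promoters run from 250 bases before to 50 bases after the gene's start and come from RefSeq (GRCh38.p14). None of these matches overlaps a match to the AP-1 or E-box letters used below.
IFIT1, chr10:89392373-89392672, + strand: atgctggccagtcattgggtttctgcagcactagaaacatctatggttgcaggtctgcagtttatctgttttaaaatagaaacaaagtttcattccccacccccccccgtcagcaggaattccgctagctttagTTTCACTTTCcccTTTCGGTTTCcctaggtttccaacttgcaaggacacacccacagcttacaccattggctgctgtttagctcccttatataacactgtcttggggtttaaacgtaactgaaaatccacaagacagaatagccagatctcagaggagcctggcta
IFIT3, chr10:89327747-89328046, + strand: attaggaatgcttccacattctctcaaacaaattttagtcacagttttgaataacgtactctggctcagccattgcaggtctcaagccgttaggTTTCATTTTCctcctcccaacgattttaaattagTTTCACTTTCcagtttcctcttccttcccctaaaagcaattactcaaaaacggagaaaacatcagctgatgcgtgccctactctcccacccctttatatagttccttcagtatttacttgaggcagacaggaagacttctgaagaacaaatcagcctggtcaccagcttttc
MX1, chr21:41420308-41420607, + strand: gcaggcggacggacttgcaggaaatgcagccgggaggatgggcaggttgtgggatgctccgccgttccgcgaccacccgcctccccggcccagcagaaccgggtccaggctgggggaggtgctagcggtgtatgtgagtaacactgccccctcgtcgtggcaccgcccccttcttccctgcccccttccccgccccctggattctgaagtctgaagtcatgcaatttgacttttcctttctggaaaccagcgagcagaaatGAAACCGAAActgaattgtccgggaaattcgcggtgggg

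Of 44 tested interferon-stimulated genes, 35 were lower, 1 was higher and 8 did not pass (81.8% called), with a median of -0.54 against 0.00 over all genes. IFIT3 was at 169, 181 and 179 CPM with sgPRMT5-1, at 94.1, 93.8 and 93.3 CPM with sgPRMT5-2 and at 146, 143 and 173 CPM with sgNeg. The sgPRMT5-1 libraries lay near the control level and the sgPRMT5-2 libraries well below it (log2 fold change -0.91, SE 0.07, adjusted p = 1.61e-08). IFIT1, which binds foreign RNA caps, was at 62.8, 72.2 and 68.1 CPM against 36.0, 36.7 and 34.7 CPM (-0.91, adjusted p = 9.96e-07), with 76.7, 63.8 and 68.8 CPM in sgNeg. The ISG15 ligase HERC5 was at 81.4, 97.4 and 77.6 CPM against 39.4, 37.4 and 41.6 CPM (-1.11, adjusted p = 1.45e-07). All 3 had each sgPRMT5-2 library below each sgPRMT5-1 library, as did OASL (-1.17), an antiviral protein of the oligoadenylate synthetase family. IRF1, a transcription factor of the pathway, was lower at 56.5, 48.7 and 45.2 CPM against 33.9, 34.4 and 30.4 CPM (-0.61, adjusted p = 5.46e-04), without overlap. The factor STAT2 was lower too (-0.47). IRF7, another such factor, did not pass (-0.67, adjusted p = 0.112), though the guides did not overlap for it.

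Not every member followed. IFI6, an interferon-induced membrane protein, was at 13.5, 12.3 and 15.2 CPM against 10.5, 14.5 and 17.3 CPM (adjusted p = 0.968), and ISG15, the ubiquitin-like modifier, had a log2 fold change of -0.04 (adjusted p = 0.814). The guides overlapped for both. IFI27 was the 1 higher member (0.57, adjusted p = 0.0391). Its call was lost when any library other than sgPRMT5-1 replicate 3 was left out, with adjusted p from 0.0522 to 0.200. MX1 was barely called, at 41.9, 35.7 and 33.0 CPM against 28.0, 33.3 and 26.4 CPM (-0.34, adjusted p = 0.0498), with adjusted p of 0.244, 0.0835, 0.177 and 0.198 without sgPRMT5-1 replicates 1 and 2 and sgPRMT5-2 replicates 1 and 3. For the 36 called members, the sgNeg mean lay above both guides in 22 and between them in 14, and it was nearer to sgPRMT5-1 in 32. The count was 36 without sgPRMT5-1 replicate 3, with a median of -0.55. In the fit of all 15 libraries 20 were lower.

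The ISRE letters stood in 24 of the 33 promoters found for the tested members (72.7%), in 18 of 27 of the lower ones (66.7%), in the higher member IFI27, in all 5 found for members that did not pass and in 3.65% of all 27305 promoters. Among promoters of all lower genes the share was 4.86% of 1028, and among those of all higher genes 2.68% of 1081, with 2.81% of 10321 for the genes tested. A match describes letters in this window and does not show a bound site. Antigen presentation genes, which the same response raises, gave 7 lower and none higher of 16 tested (43.8% called), with a median of -0.16. The peptide-trimming ERAP2 was at 524, 492 and 437 CPM against 340.3, 347 and 359 CPM (-0.47, adjusted p = 2.68e-05). The immunoproteasome subunit PSMB10 was at 14.9, 14.5 and 14.7 CPM against 6.47, 7.98 and 6.93 CPM (-1.05, adjusted p = 2.46e-04), and PSMB8 fell by 0.64. In these 3 genes the guides did not overlap. The letters were in 6 of 12 promoters found for this list.

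Ribosome biogenesis was the counterpart among the higher genes. Promoters of 2 members are shown with capitals on CACGTG, the E-box bound by MYC and related factors, because this group also moved together, from the same source and window.
PES1, chr22:30591861-30592160, - strand: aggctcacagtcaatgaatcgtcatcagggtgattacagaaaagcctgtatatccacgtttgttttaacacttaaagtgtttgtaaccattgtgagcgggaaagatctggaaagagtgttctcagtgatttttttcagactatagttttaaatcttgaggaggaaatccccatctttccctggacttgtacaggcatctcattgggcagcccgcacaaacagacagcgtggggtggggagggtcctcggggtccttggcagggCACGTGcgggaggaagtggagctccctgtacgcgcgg
RRP9, chr3:51941855-51942154, - strand: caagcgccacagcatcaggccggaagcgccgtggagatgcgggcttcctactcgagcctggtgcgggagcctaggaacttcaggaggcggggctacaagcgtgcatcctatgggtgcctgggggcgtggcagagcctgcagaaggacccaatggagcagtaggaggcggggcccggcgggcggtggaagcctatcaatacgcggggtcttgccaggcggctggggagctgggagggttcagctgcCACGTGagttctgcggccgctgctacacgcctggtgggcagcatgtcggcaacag

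Of 37 tested ribosome biogenesis genes, 30 were higher and none lower (81.1% called), with a median of 0.34. NCL, nucleolin, was at 1148, 1199 and 1334 CPM with sgPRMT5-1, at 1449, 1479 and 1502 CPM with sgPRMT5-2 and at 929, 1016 and 1062 CPM with sgNeg. The 3 groups did not overlap, and sgPRMT5-1 replicate 3 was the member of its group closest to sgPRMT5-2 (log2 fold change 0.27, SE 0.05, adjusted p = 6.37e-04). TCOF1, the nucleolar protein treacle, was at 293, 291 and 354 CPM against 404, 409.6 and 402 CPM (0.38, adjusted p = 4.84e-04). PES1, a factor for the large ribosomal subunit, was at 76.3, 84.6 and 114 CPM against 120.2, 128 and 119 CPM (0.44, adjusted p = 0.00493), and RRP9, which binds U3 RNA, was at 21.5, 23.3 and 33.0 CPM against 38.4, 36.4 and 33.2 CPM (0.50, adjusted p = 0.0118). In all 4, replicate 3 of sgPRMT5-1 was the nearest of its group to the sgPRMT5-2 range and did not enter it. For the 30 higher genes the sgNeg mean lay below both guides in every case. The number called ran from 11 to 18 when a library other than sgPRMT5-1 replicate 3 was left out, was 33 without that library (median 0.44) and was 6 in the fit of all 15 libraries.

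The E-box letters stood in 10 of 31 promoters found for this list (32.3%) and in 7 of 24 of its higher members (29.2%), against 7.43% of all promoters and 10.1% of those of the genes tested. Over all called genes the share was 13.7% of 1081 for the higher and 8.66% of 1028 for the lower ones. MYC, on chromosome 8, was itself at 301, 304 and 336 CPM against 325, 307 and 294 CPM (adjusted p = 0.858). Within the MYC network, MLX (0.46) and MXD1 (0.39) were higher and MXI1 (-0.42) lower of 12 tested (25.0% called, against 19.2% of all genes), with a median of -0.07. MLX lost its call without sgPRMT5-1 replicate 1 (adjusted p = 0.0570), MXD1 without sgPRMT5-2 replicate 1 (0.139) or 3 (0.0959), and MXI1 without any library other than sgPRMT5-1 replicate 3 (0.0541 to 0.162).

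Of 59 cytoplasmic ribosomal protein genes, 7 were lower and none higher (11.9% called, against 19.2% of all genes), with a median of 0.00. RPLP0, a stalk protein, was at 2929.9, 2742 and 3080.1 CPM against 2554, 2553 and 2506 CPM (-0.20, SE 0.04, adjusted p = 0.00156), a small decrease without overlap. Many of these genes have near-identical processed copies, so their counts are uncertain. Their numbers also depended on sgPRMT5-1 replicate 3, without which 14 were higher and 11 lower, a share above the 33.6% of all genes in that fit. There were 2 to 5 lower with another library left out and none in the fit of all 15 libraries. Among 18 cytoplasmic tRNA synthetases, 9 were higher and 1 lower (55.6% called), with a median of 0.19. TARS1 was at 528, 535 and 626 CPM against 694, 676 and 698 CPM (0.30, adjusted p = 0.00142), and HARS1 at 68.7, 73.2 and 90.8 CPM against 101, 102 and 102 CPM (0.40, adjusted p = 0.00449). WARS1, which interferon induces, was the lower one, at 184, 181 and 174 CPM against 132, 136 and 144 CPM (-0.38, adjusted p = 5.46e-04). The guides were apart in all 3. The number of higher synthetases was 13 without sgPRMT5-1 replicate 3, 2 to 4 with another library left out, 5 when libraries were scaled by their totals alone and 1 in the fit of all 15 libraries.

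Targets of ATF4, the factor of the integrated stress response, split, with 8 of 29 higher and 5 lower (44.8% called) and a median of 0.10. ATF3 was at 94.6, 83.0 and 50.7 CPM against 208, 223 and 244 CPM (1.60, SE 0.13, adjusted p = 3.52e-08), and STC2 was at 121, 134 and 157 CPM against 186, 197 and 202 CPM (0.51, adjusted p = 1.80e-04). Both were clearly higher with sgPRMT5-2. DDIT4, an inhibitor of mTORC1, went the other way, from 451, 508 and 414 CPM to 261, 248 and 267 CPM (-0.82, adjusted p = 5.04e-08). Between 4 and 5 were higher with a library other than sgPRMT5-1 replicate 3 left out and 11 without it, and 2 to 4 and 6 were lower. In the fit of all 15 libraries 3 were higher and 2 lower.

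Most transcripts encoded in mitochondria were called higher, but their levels varied between libraries of the same guide. Mitochondrial genes took 1.20%, 1.01% and 0.729% of the gene counts with sgPRMT5-1 and 1.12%, 1.41% and 1.72% with sgPRMT5-2. These ranges overlapped, with sgPRMT5-1 replicate 3 the lowest and sgPRMT5-2 replicate 3 the highest, and sgNeg ranged wider, at 0.953%, 2.54% and 1.19%. Of the 15 genes of the list, which covers proteins and rRNA, 12 were called higher and none lower (80.0% called), with a median of 0.52. The guides did not overlap in 5 of the 15, near the share over all genes tested (34.9%). MT-ND3, a subunit of complex I, was at 340.1, 345 and 218 CPM against 590.4, 593 and 651 CPM (1.05, SE 0.10, adjusted p = 5.68e-07). MT-ND2 was at 479, 424 and 327 CPM against 681, 794 and 918 CPM (0.96, adjusted p = 1.14e-06). Both were higher in each sgPRMT5-2 library, while MT-ND5, at 648, 529 and 367 CPM against 465, 608 and 778 CPM, overlapped and did not pass (adjusted p = 0.244), though it did with no filter on low counts (0.24, adjusted p = 0.00336). For MT-ND5, the log2 fold change of 0.26 fell to 0.03 without sgPRMT5-1 replicate 3 (adjusted p = 0.833). Without sgPRMT5-1 replicate 3, 12 were called and the median was 0.31, 6 and 8 were called without sgPRMT5-2 replicates 3 and 2, and 3 were called in the fit of all 15 libraries. Outside the list, MT-TP, a mitochondrial tRNA gene, was the 1 other tested gene and was lower (-0.90, adjusted p = 0.0115), a call not followed through the alternatives. Part of these counts may come from nuclear copies. The nuclear genes of oxidative phosphorylation gave 1 lower (NDUFV1, -0.24) and none higher of 40 (2.50% called), with a median of 0.02. NDUFV1 lost its call without sgPRMT5-2 replicate 1 (adjusted p = 0.0930) or 2 (0.0510). Without sgPRMT5-1 replicate 3 there were 5 higher and 2 lower of 40, a share under the 33.6% of all genes in that fit.

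**Figure D4:**
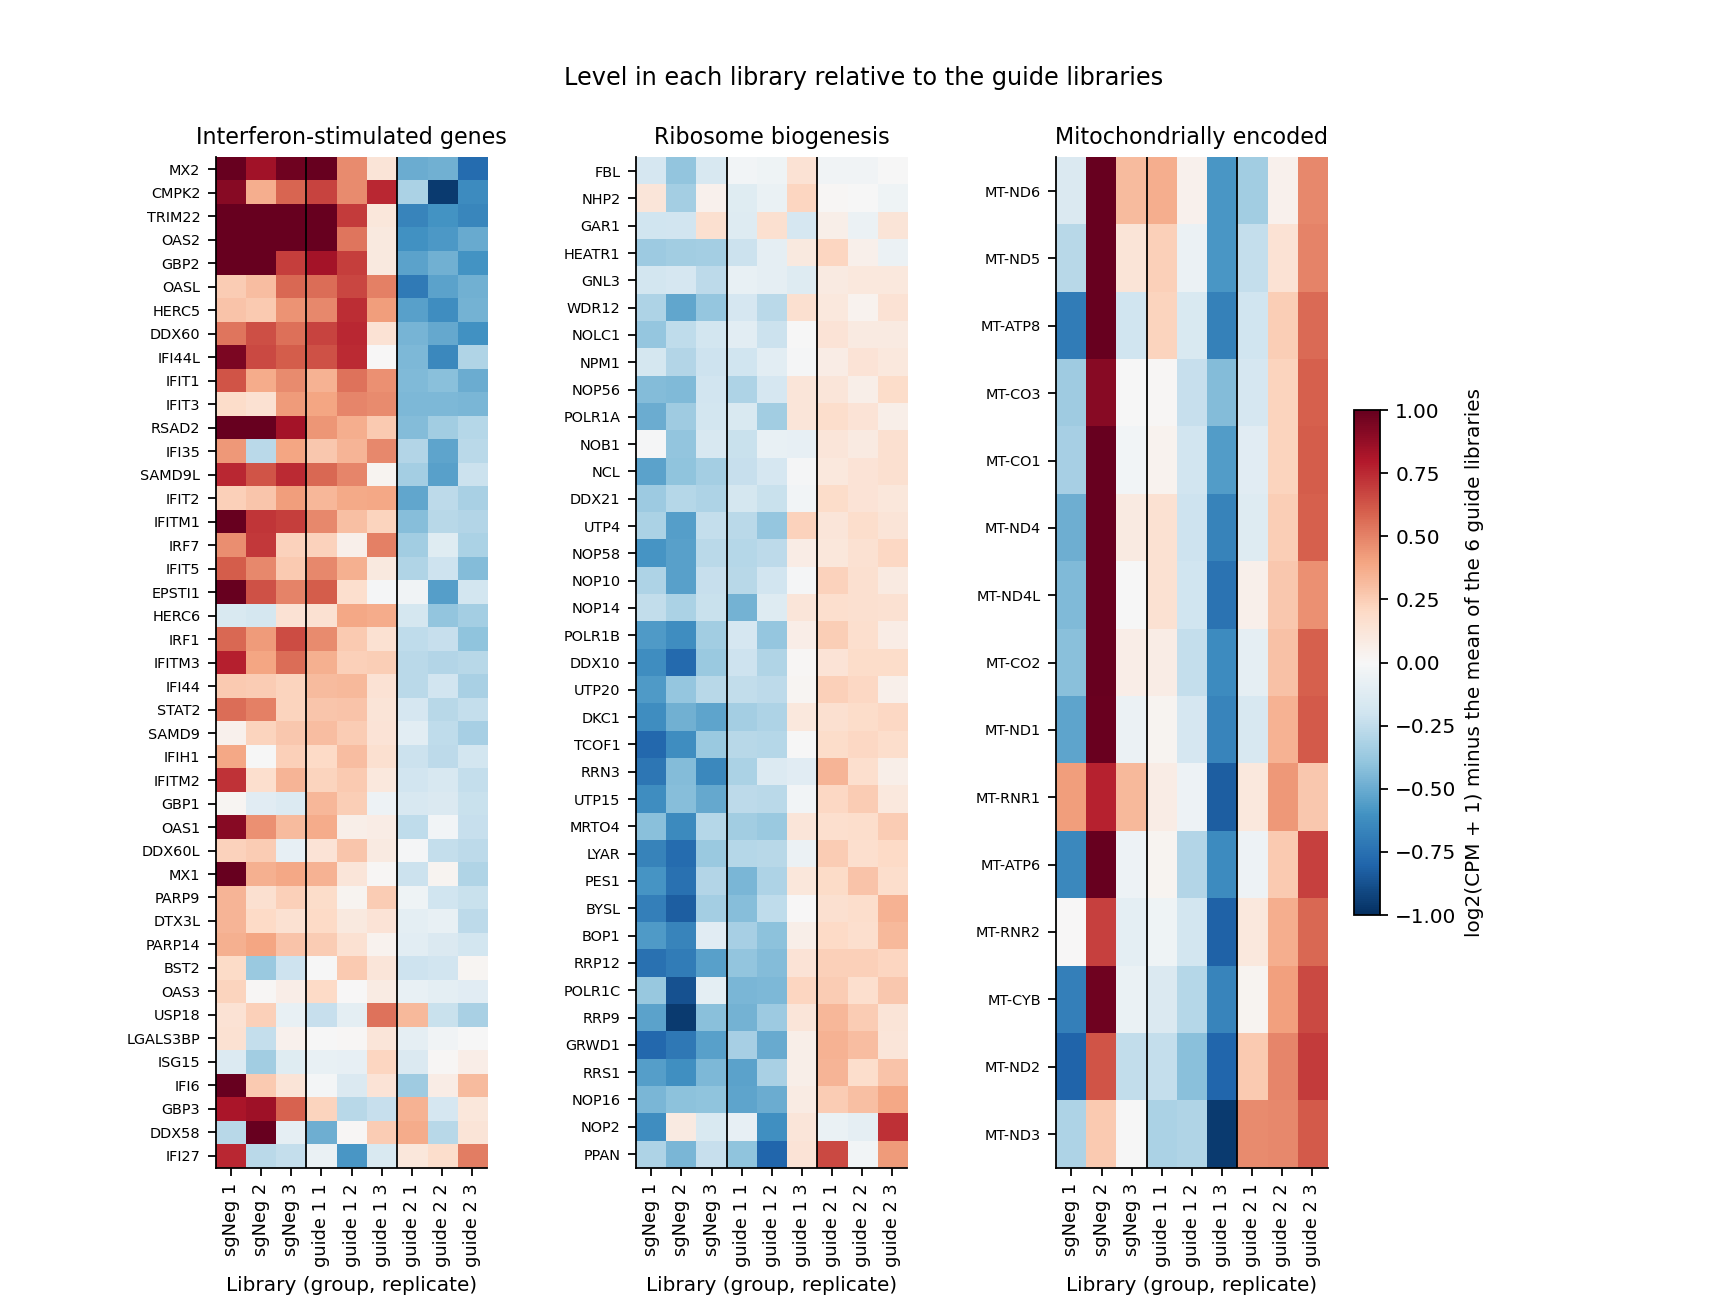
Rows are tested genes of the lists, 1 interferon-stimulated gene not shown, and each column is a library; colour is log2(CPM + 1) minus the mean of the 6 guide libraries, from -1 (blue) to 1 (red). Interferon-stimulated genes are low in the 3 sgPRMT5-2 libraries, ribosome biogenesis genes are high there and intermediate in sgPRMT5-1 replicate 3, and mitochondrial genes vary within each guide.

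In the S phase list, 2 genes, CDC6 (0.28) and POLE (0.26), were higher and 3, RPA3 (-0.43) and PRIM1 (-0.34) among them, were lower of 47 tested (10.6% called), with a median of -0.03. In the mitosis list, FOXM1 (0.27) was higher and CDK1 (-0.36), CDC25B (-0.27) and TOP2A (-0.19) were lower of 48 (8.33% called), with a median of 0.01. These shares lie under the 19.2% of all genes with the 6 libraries. CDK1, the mitotic kinase, was at 185, 179.7 and 152 CPM against 136, 135 and 132 CPM (adjusted p = 0.00286), and MKI67, the proliferation marker Ki-67, was at 1069, 996 and 1071 CPM against 1133, 1093 and 1051 CPM (adjusted p = 0.364). Every sgPRMT5-2 library was thus lower for CDK1, and the guides overlapped for MKI67. PCNA (-0.04, adjusted p = 0.681) and BIRC5 (0.07, adjusted p = 0.469) did not pass, but BIRC5 did without sgPRMT5-1 replicate 3 (0.12, adjusted p = 0.0367). Several of these calls were lost when 1 library was left out, with adjusted p up to 0.0708 for CDC6, 0.0754 for FOXM1 and 0.117 for TOP2A, and without sgPRMT5-1 replicate 3 there were 10 higher and 3 lower in the S phase list and 9 higher and 10 lower in the mitosis list. In that fit 33.6% of all genes were called, so the 19 of 48 mitosis genes lay above that share and the 13 of 47 S phase genes below it. Homologous recombination and Fanconi repair gave 2 lower, BARD1 (-0.38) and ATM (-0.26), and none higher of 30 (6.67% called), with a median of -0.04. There were 5 lower and 1 higher without sgPRMT5-1 replicate 3, also below the 33.6% of all genes, and 0 to 2 lower with another library left out.

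Genes that protect against oxidants were more often called lower than higher. Of 24 NRF2 targets, 11 were lower and 1 higher, with a median of -0.19. GCLC, the rate-limiting enzyme of glutathione synthesis, was at 281, 267 and 243 CPM against 184, 165 and 188 CPM (-0.56, SE 0.07, adjusted p = 1.34e-05). HMOX1, heme oxygenase, was the exception and was higher (1.10, adjusted p = 1.21e-05). The guides did not overlap for either gene. There were 7 lower without sgPRMT5-2 replicate 1 and 4 in the fit of all 15 libraries. Of 32 genes of hypoxia and glycolysis, 11 were lower and VEGFA (0.30) was higher (37.5% called), with a median of -0.08. EGLN3, an oxygen sensor, was at 49.5, 51.9 and 38.7 CPM against 24.1, 17.6 and 21.3 CPM (-1.15, adjusted p = 4.83e-06). The mitophagy receptor BNIP3L, on chromosome 8, fell by 0.66 and the glycolytic ALDOC by 0.56. CA9 (-0.93, adjusted p = 0.0201) lost its call without sgPRMT5-1 replicate 2 (0.105) or sgPRMT5-2 replicate 1 (-0.61, adjusted p = 0.166). In this list 7 were lower without sgPRMT5-2 replicate 1, 5 were higher and 13 lower without sgPRMT5-1 replicate 3, and 3 were lower in the fit of all 15 libraries.

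In cholesterol synthesis and its regulators, 5 of 25 were lower and 1 was higher (24.0% called, against 19.2% of all genes), with a median of -0.09. HMGCS1, an early enzyme of the pathway, was at 554, 597 and 528 CPM against 485, 465 and 461 CPM (-0.25, adjusted p = 0.00395), without overlap, and STARD4, a sterol carrier, fell by 0.54. In fatty acid synthesis, 5 of 15 were lower and none higher (33.3% called), with a median of -0.09, among them ACSL1 (-0.53), FADS1 (-0.32) and SCD (-0.23). Leaving out sgPRMT5-1 replicate 3, the cholesterol list had 1 higher and 10 lower, and no member was higher without sgPRMT5-1 replicate 1 or any 1 of the sgPRMT5-2 libraries. In the fatty acid list 2 were then higher and 7 lower. In the fit of all 15 libraries 1 cholesterol gene and 2 fatty acid genes were lower.

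In the TGF-beta list, ID1, a BMP target that blocks basic helix-loop-helix factors, was at 157, 153 and 129.6 CPM against 52.7, 47.5 and 53.8 CPM (-1.51, SE 0.09, adjusted p = 5.42e-10). Each sgPRMT5-2 library was well below the sgPRMT5-1 range, and sgNeg was at 193, 165 and 157 CPM. INHBA (2.20), FST (0.98), BMP2 (0.65), TGFB2 (0.52) and TGFBR2 (0.50) were higher, giving 5 higher and 1 lower of 19 (31.6% called), with a median of 0.21. INHBA was below 2 CPM and lost its call without sgPRMT5-1 replicate 1 (adjusted p = 0.0804), 2 (0.0768) or 3 (1.46, adjusted p = 0.124) or sgPRMT5-2 replicate 2 (0.0647), and was not tested without sgPRMT5-2 replicate 1 because it missed the filter on low counts. With a library left out, 2 to 5 were higher and, without sgPRMT5-1 replicate 3, 3 were lower. Notch genes gave 4 lower and none higher of 15 (26.7% called), with a median of -0.12. The Notch target NRARP was at 126, 134 and 115 CPM against 58.1, 58.4 and 57.4 CPM (-1.10, adjusted p = 9.39e-09), and the receptor NOTCH3 was at 117, 101 and 95.9 CPM against 52.5, 53.7 and 57.8 CPM (-0.93, adjusted p = 4.23e-07). Both were lower without overlap and highest in sgNeg, at 189, 161 and 182 CPM and at 166, 158 and 152 CPM. NOTCH1 (-0.23) and JAG2 (-0.25) made up the rest, and 2 were lower without sgPRMT5-1 replicate 1 or any 1 of the sgPRMT5-2 libraries. Wnt genes gave 1 higher, the antagonist DKK1 (0.97), and 6 lower of 24 (29.2% called), with a median of -0.20. DKK1 was at 36.3, 39.7 and 48.7 CPM against 76.9, 83.3 and 81.7 CPM (adjusted p = 9.96e-07), without overlap. Without sgPRMT5-1 replicate 1 or sgPRMT5-2 replicate 1, 3 were lower.

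In the methylosome list of 5, the adaptors RIOK1 (0.39) and COPRS (0.33) were higher (40.0% called), with a median of 0.23. RIOK1, which brings substrates to the complex, was at 48.3, 44.4 and 52.4 CPM against 65.2, 63.3 and 61.2 CPM (SE 0.09, adjusted p = 0.00540), and COPRS at 29.0, 33.4 and 38.5 CPM against 43.2, 42.4 and 39.8 CPM (adjusted p = 0.0435). Neither overlapped. The call for COPRS was lost when any library other than sgPRMT5-1 replicate 3 was left out (adjusted p = 0.0853 to 0.244). CLNS1A, the adaptor for Sm proteins, was at 134, 144 and 150.0 CPM against 138, 135 and 147 CPM (adjusted p = 0.847). Among 7 other arginine methyltransferases, CARM1 was higher (0.30, adjusted p = 0.0197), a share of 14.3% against 19.2% of all genes, and the median was 0.08. The call for CARM1 was again lost when any library other than sgPRMT5-1 replicate 3 was left out (0.0625 to 0.0938). Of 21 genes for Sm proteins and their assembly, DDX20 was higher (0.35, adjusted p = 0.0147), a share of 4.76% against 19.2% of all genes, with a median of 0.05. It lost its call without sgPRMT5-1 replicate 2 (0.106), sgPRMT5-2 replicate 1 (0.0855) or sgPRMT5-2 replicate 3 (0.0536). Without sgPRMT5-1 replicate 3, 3 methylosome genes, 3 other methyltransferases and 4 of the Sm list were higher, and 1 other methyltransferase was lower. In that fit 33.6% of all genes were called, and the share of the Sm list lay under it. In the fit of all 15 libraries none of the 3 lists had a called gene, with adjusted p = 0.107 for RIOK1, 0.133 for COPRS, 0.0837 for CARM1 and 0.0755 for DDX20.

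**Figure D5:**
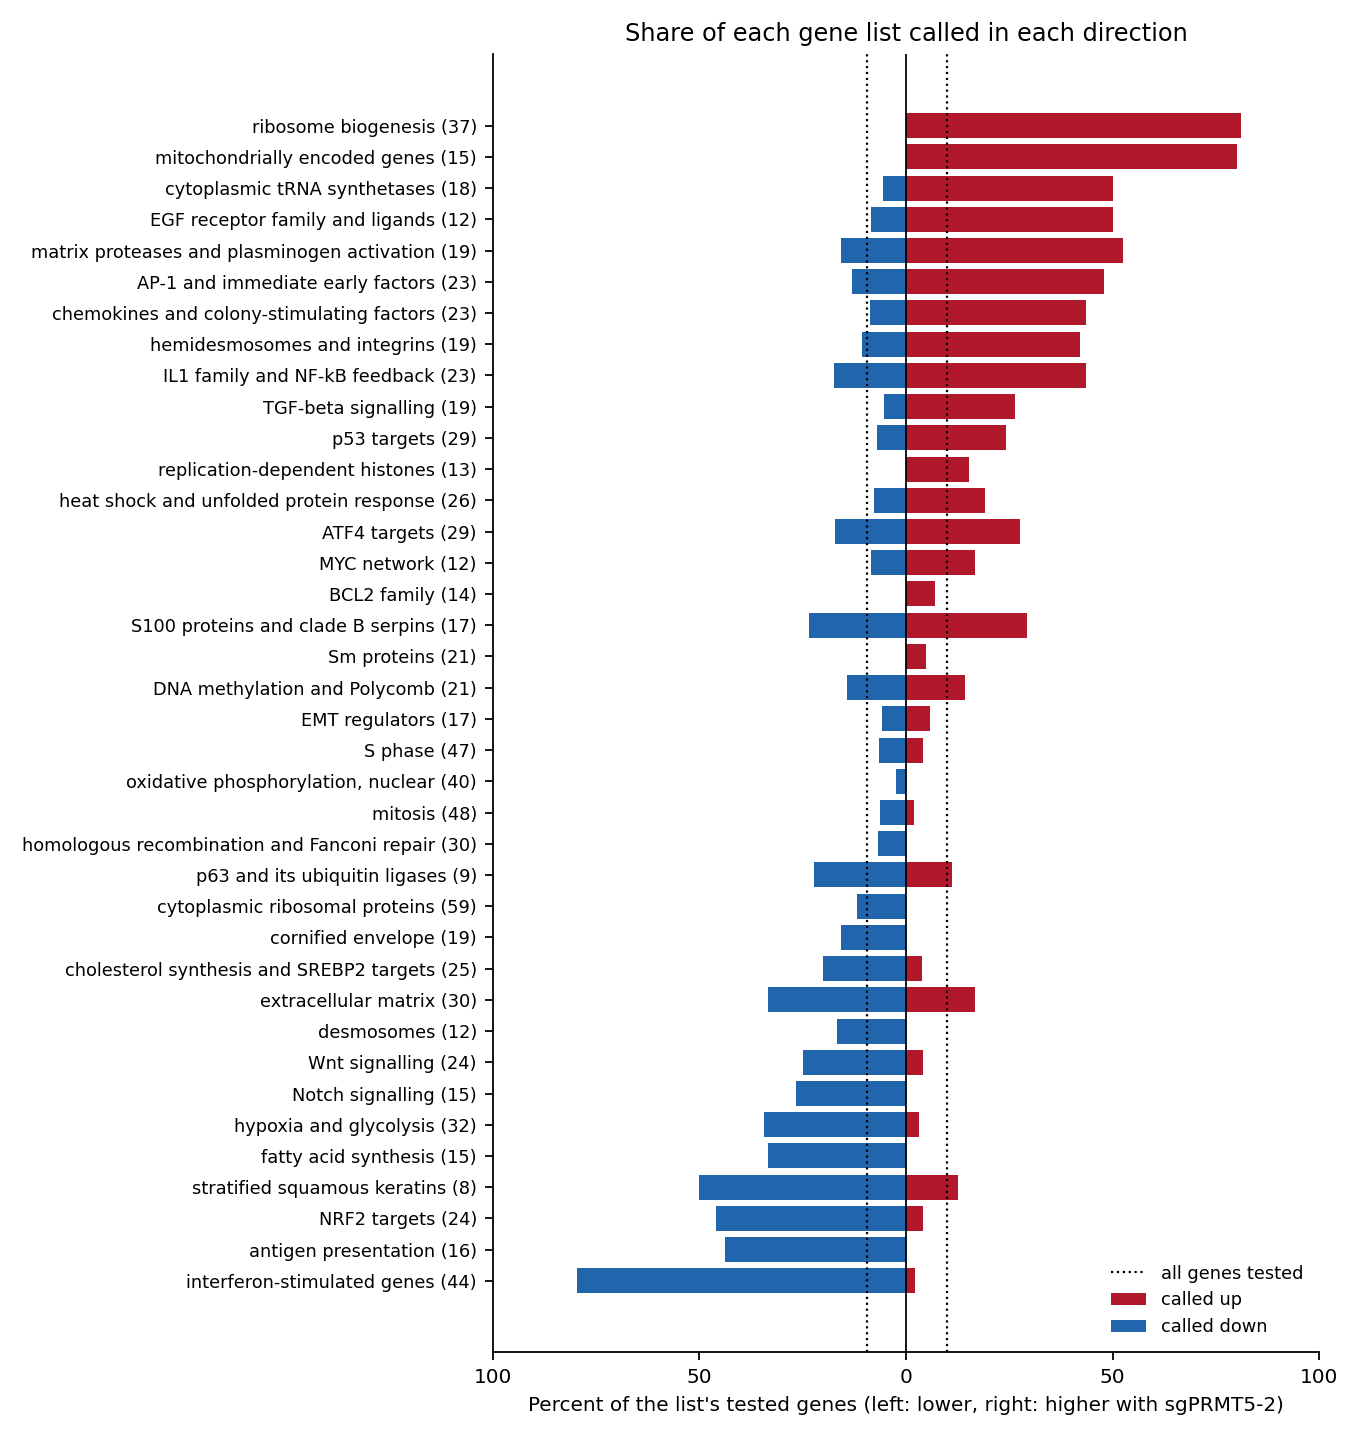
Percent of the tested genes of each list with at least 8 tested (number in brackets) called higher with sgPRMT5-2 (red, right) or lower (blue, left); dotted lines are the shares over all genes, 9.94% and 9.31%. Ribosome biogenesis (30 of 37 higher) and interferon-stimulated genes (35 of 44 lower) lie at opposite ends.

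Features not used to choose genes also differed between the directions. Protein-coding genes higher with sgPRMT5-2 had a median GC content of 50.5% in their canonical transcript, the lower ones 45.1% and all tested 47.9%. The median number of exons was 11, 9 and 9, the median transcript length 3510, 3730 and 3440 bases and the median span in the genome 27.1, 34.4 and 29.4 kb. The part of GC content in the calls was not tested. By autosome, the share called was 14.8% to 23.5%. The letters TGANTCA, bound by AP-1, stood in 8.33% of the promoters of higher genes, 4.47% of those of lower genes, 4.66% of those of the genes tested and 7.76% of all promoters, counting both strands. They stood in 2 of the 5 promoters found for higher members of the protease list, MMP10 and PLAUR, and in 3 of 8 found for higher cytokines, IL11, IL23A and IL6R. They also stood in the promoter of MMP7, which was lower, in 1 of 2 found for lower cytokines, OSMR, and in none of 7 found for higher members of the list of AP-1 and immediate early factors. The stromelysin gene MMP10 (1.49, adjusted p = 9.13e-06) and the cytokine gene IL11 (1.95, adjusted p = 1.16e-05) had each sgPRMT5-2 library on the higher side. Their promoters are shown with the letters in capitals.
MMP10, chr11:102780579-102780878, - strand: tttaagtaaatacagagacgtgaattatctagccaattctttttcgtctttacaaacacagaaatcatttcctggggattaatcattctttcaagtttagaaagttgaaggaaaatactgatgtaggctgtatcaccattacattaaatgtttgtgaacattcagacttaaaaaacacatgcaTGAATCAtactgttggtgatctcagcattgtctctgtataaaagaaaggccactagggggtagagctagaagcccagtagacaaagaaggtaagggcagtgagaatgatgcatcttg
IL11, chr19:55370414-55370713, - strand: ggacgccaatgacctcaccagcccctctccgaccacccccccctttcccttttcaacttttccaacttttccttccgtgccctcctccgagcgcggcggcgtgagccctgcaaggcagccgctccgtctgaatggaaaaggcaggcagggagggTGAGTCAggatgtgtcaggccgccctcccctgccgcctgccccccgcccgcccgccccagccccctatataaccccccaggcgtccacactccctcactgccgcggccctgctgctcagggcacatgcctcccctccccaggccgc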

How the data were processed

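Polyadenylated RNA was sequenced from 15 cultures, and the 6 with guides to PRMT5 were compared. The files hold whole-number htseq-count reads per gene, deposited by the authors (unit: other, not normalized), made with STAR and HTSeq on hg38. The 5 summary rows, 21.5% to 22.7% of the reads listed in the guide libraries, were left out. Libraries were scaled by TMM (own function, trims 0.3 and 0.05), genes with a mean normalized count of at least 3 were kept, and limma voom (limma 3.58.1, R 4.3.3, 0.5 added to counts) was fitted on 6 libraries, 3 per guide, with p adjusted by the Benjamini-Hochberg method over 13976 genes and a threshold of 0.05. The method was tested on simulated data. Replicate numbers were not used in this fit, since deviations of libraries with the same number had correlations of -0.01. Gene types and positions came from GENCODE 44, which matched 13961 of 13976 genes.

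The members and the 49 gene lists were chosen with earlier results of these data known. The text names PRMT5, WDR77, TP63, CDKN1A, ITCH, FBXO30 and FBXW7. It names the 10 largest increases and 10 largest decreases among called genes with groups apart and a mean of at least 1 CPM. From each list it names the 3 called members with the smallest adjusted p and the best-known gene. Other genes were named after their values were seen. Alternatives were size factors by median of ratios (RLE), library totals, no filter, a minimum of 10, all 15 libraries, the replicate block, limma-trend, a log2 fold change of at least 1, and leaving out each library. The values are whole-number reads, but the check of their unit could not read the files' layout, so the tests of edgeR and DESeq2 were not run. Counting intervals (95%, exact binomial) cover counting error alone.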

Additional observations from a re-analysis of the deposited data

How the results depend on the processing

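No called gene among 185 further named genes changed direction under the alternatives that could be fitted. Median-of-ratios size factors left all 185, called or not, on the same side of the threshold, and library totals moved 3 below it, with 1146 genes called higher and 1552 lower. With a replicate block 3016 genes were called, 1481 higher and 1535 lower.

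When all 15 libraries shared the spread, 1071 genes were called, 508 higher and 563 lower, and 48 of the 185 no longer passed. TP63, at -0.23, did not pass either (adjusted p = 0.225), and it missed the threshold in limma-trend as well (-0.23, adjusted p = 0.0554). In that fit of all 15 libraries 8 matrix protease genes were higher and 1 lower, 7 and 3 of the IL1 and NF-kB list, 9 and 0 of the chemokines, 4 and 7 of the extracellular matrix and 6 and 0 of the hemidesmosome list. Several lists with called genes had none there, namely the methylosome, the other arginine methyltransferases, the Sm proteins, p63 and its ubiquitin ligases, homologous recombination and Fanconi repair, desmosomes, ribosomal proteins, nuclear oxidative phosphorylation, and DNA methylation and Polycomb. Single genes that did not pass there include ITCH, UBE3A, CDC6, FOXM1, TOP2A, H2AC6, KRT17, KRT80, COL12A1, CDH3, TARS1, HMGCS1, SCD, TCOF1, NCL, MXD1, MXI1, JAG2, MUC1, IFI27, MX1, INHBA, CA9, MMP7 and CXCL1. Of the heat shock list 2 were higher, of TGF-beta signalling 2 were higher and 1 lower, of Wnt signalling 1 and 3, of the S100 and serpin list 2 and 3, and 2 S phase genes, 1 mitosis gene and 2 keratinocyte markers were lower. A log2 fold change of at least 1 left 386 genes, 160 higher and 226 lower, because fewer genes qualify.

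Leaving out each library in turn gave 1429 to 4711 called genes, 699 to 2365 higher and 704 to 2346 lower. The highest numbers all came without sgPRMT5-1 replicate 3. The log2 fold change of TP63 ran from -0.35 to -0.15 and passed only without that replicate, and that of PRMT5 ran from 0.14 to 0.32 and passed only there (0.32, adjusted p = 0.0117). The cause was not tested.

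The edgeR and DESeq2 tests were not run. With 3 libraries per guide and the depths given above, differences in genes at a few counts are imprecise. INHBA could not be fitted without sgPRMT5-2 replicate 1.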

Other observations

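The remaining lists are given by their counts and a few members. Of 13 tested replication-dependent histone genes, H2BC8 (1.23) and H2AC6 (0.60) were higher (15.4% called, median 0.35). Polyadenylated libraries capture such transcripts poorly and the copies are near identical, so these values are uncertain. Both calls were lost without sgPRMT5-1 replicate 1, where H2BC8 was at 0.81, or sgPRMT5-2 replicate 2. Of 26 heat shock and unfolded protein genes, 5 were higher and 2 lower (26.9% called, median 0.02). HSPH1, a cytosolic chaperone, was at 373, 392 and 409 CPM with sgPRMT5-1 and at 532, 500.2 and 491 CPM with sgPRMT5-2 (0.38, adjusted p = 9.86e-05), without overlap. There were 8 higher and 5 lower without sgPRMT5-1 replicate 3, and 3 higher and none lower without sgPRMT5-2 replicate 1.

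The cadherin CDH2 was at 67.9, 75.5 and 86.3 CPM against 121, 109 and 114 CPM (0.60, adjusted p = 8.35e-05), higher in each sgPRMT5-2 library. CDH3 was lower (-0.23), and these were the called members among 17 regulators of epithelial-mesenchymal transition (11.8% called, median 0.01). CDH1, the epithelial cadherin, was at 349, 397 and 384 CPM against 389, 393 and 401 CPM (adjusted p = 0.437). Without sgPRMT5-1 replicate 3, 4 of the list were lower and 1 was higher, a share under the 33.6% of all genes in that fit. CDH3 lost its call without sgPRMT5-2 replicate 1 (adjusted p = 0.0566), where no member was lower, and 2 members were higher without sgPRMT5-2 replicate 3. Among 14 genes of the BCL2 family, BCL2L1, which restrains apoptosis, was the called gene, at 61.9, 68.2 and 72.1 CPM against 110.5, 117 and 122 CPM (0.79, adjusted p = 1.01e-06; 7.14% called, median 0.08). Its groups were well apart. In the BCL2 list 2 were higher and 1 lower of 15 tested without sgPRMT5-1 replicate 3, a share under the 33.6% of all genes in that fit. The number of higher members was 2 without sgPRMT5-1 replicate 2 and 3 with no filter on low counts.

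Of 21 genes of DNA methylation and Polycomb, DNMT1 (0.25), TET3 (0.27) and KDM6B (0.33) were higher and DNMT3A (-0.33), TET2 (-0.34) and CBX7 (-0.59) lower (28.6% called, median -0.03). TET2 lost its call without sgPRMT5-1 replicate 1 (adjusted p = 0.0930) or 2 (0.0646) or sgPRMT5-2 replicate 1 (0.0505) or 3 (-0.21, adjusted p = 0.212), and 1 member was lower in each of these fits. No member was higher without sgPRMT5-1 replicate 2 or sgPRMT5-2 replicate 1 or 2, and without sgPRMT5-1 replicate 3 there were 4 higher and 5 lower. Of 17 S100 and clade B serpin genes, 5 were higher and 4 lower (52.9% called, median 0.04). The protease inhibitor SERPINB13 was at 22.4, 20.8 and 12.2 CPM against 3.76, 4.66 and 4.13 CPM (-2.09, adjusted p = 1.49e-05), lower without overlap. None of this list was higher without sgPRMT5-1 replicate 1. Of 6 oncofetal and imprinted genes, HMGA2 (0.84), IGF2BP2 (0.47) and HMGA1 (0.42) were higher and PEG10 (-0.69) and IGF2BP3 (-0.55) lower (83.3% called, median 0.18), with the same counts whichever library was left out. HMGA2, a chromatin protein, was at 37.2, 41.7 and 37.0 CPM against 69.4, 67.3 and 70.0 CPM (adjusted p = 1.90e-06), so the guides were apart. Of 2 tested membrane mucins, MUC1 was lower (-0.83) and MUC13 higher, with 2 counts against 22, a ratio of 11.1 with a 95% counting interval of 2.72 to 97.1. MUC1 lost its call without sgPRMT5-1 replicate 1 (-0.54) or any 1 of the sgPRMT5-2 libraries.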
